A study of Mus musculus with 6 samples.

Results

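The genes described here are 29 enzymes, regulators and targets of cholesterol synthesis, taken by symbol from a fixed list. They are 20 enzymes of the pathway from acetyl-CoA units to cholesterol, 5 genes that make up or control the SREBP transcription factors, 2 genes of sterol transport and 2 of fatty acid synthesis. The 20, called synthesis enzymes below, include Ggps1, which lies on an isoprenoid side branch. All 29 were found among the 51912 genes of the RSEM tables, of which 51633 matched a symbol, and all 29 were expressed highly enough to be tested. RNA of sorted small-intestinal epithelium was sequenced from mice of the C57BL/6 strain. Specific pathogen free (SPF) mice were kept without particular pathogens only, germ-free (GF) mice carried no microbiota, and antigen-free (AF) mice had foreign antigens from neither microbiota nor food. There were 2 libraries per group, which keep their title numbers below: SPF 3 and SPF 4, GF 1 and GF 3, and AF 2 and AF 3. No label gives an age, a sex or the make-up of the diets, and none says that the libraries of a group came from separate animals, so that a p-value reflects no more than the spread among these libraries, which may be technical.

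Cholesterol is built from acetyl-CoA through mevalonate, isoprenoid units, squalene and lanosterol, and the same isoprenoids also feed protein prenylation and dolichol. SREBP-2, the product of Srebf2, drives most of these enzymes when sterols in the endoplasmic reticulum are low, while SREBP-1, from Srebf1, acts more on fatty acid synthesis. SCAP carries both precursors to the Golgi for cleavage and the INSIG proteins hold them back when sterols are plentiful. In the small intestine, enterocytes of the villus take up dietary and biliary cholesterol, and both crypt and villus cells can also make it.

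The libraries held 16109488 to 19417054 expected counts, and no member was below 53 counts in any library. Epithelial markers were high throughout (8 genes summing to 6877 to 8345 CPM, read counts scaled to a common library total after TMM normalisation), and Krt8 led them in each library. B cell markers summed to at most 0.779 CPM and stromal markers to at most 3.66 CPM, whereas T cell and intraepithelial lymphocyte markers ranged from 11.3 CPM in AF 3 to 292 CPM in GF 3. The libraries of a group differed in crypt content: a score over 20 crypt stem cell and proliferation genes (mean log2 CPM, centred per gene) was 0.93 and -2.1 in SPF 3 and SPF 4, 0.94 and -0.23 in GF 1 and GF 3, and -0.041 and 0.5 in AF 2 and AF 3. Paneth cell markers summed to 41.5 CPM in SPF 4 and 887 to 5295 CPM elsewhere, highest in GF 1, and goblet cell markers to 2807 CPM in SPF 4 and 11926 to 29182 CPM elsewhere. Tuft cell markers were ordered by group, at 93 and 17.5 CPM in SPF, 147 and 201 in GF, and 303 and 283 in AF, and the part of these cell types in the results was not tested. SPF 4 was also the library highest in brush border markers, at 57383 CPM against 20168 to 32449 CPM in the others. Y-linked transcripts were at 0 in both SPF libraries and at 52.2 to 61.7 CPM in the others, Xist stood at 130 and 96.6 CPM in SPF, and GF 3 held both kinds (Xist 14.8 CPM). Sex and group therefore cannot be told apart in comparisons with SPF, nor can a date-like number in the names of the deposited tables, which differs between groups and is shared within them, be told apart from the group in any comparison.

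On a per-length scale (TPM, abundance scaled by transcript length and to a fixed library total), which allows genes to be compared, Npc1l1 was by far the most abundant of the 29. This brush border transporter takes up cholesterol from the gut lumen, and its mean level over the 6 libraries was 214 TPM. The next were Fdps with 47.9, Srebf1 with 40.1, Ebp with 32.9 and Hmgcs1 with 31.1 TPM. Lss with 5.45 and Hsd17b7 with 3.62 TPM, both enzymes of the sterol ring steps, were the lowest.

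SREBPs bind sterol regulatory elements, and the factor NF-Y, which binds CCAAT, often sits beside them. The 250 bases before the annotated starts (RefSeq, GRCm38.p6) were available for 25 of the 29 genes and were searched on both strands, not including Fdps, Fdft1, Sqle and Stard4. CCAAT lay in 22 of 25 genes (88%), against 37.49% of all 27025 genes in the table and 40.53% of the 10207 tested ones. Acat2, Acly and Scap had none in these windows. A gene was counted if any of its promoters matched. Per promoter, CCAAT lay in 23 of 33 (69.7%), against 33.85% of all promoters and 35.24% of those of tested genes. In 15 of the 33 the last 150 bases hold no annotated exon base (GENCODE M21). Some matches, as in Idi1 and Msmo1, lie in annotated exons. The sterol element written as TCACNCCAC lay in 1 of 25, Hmgcs1, against 1.22% of all genes. Its match there, TCACCCCAC, begins 137 bases before the start, and that exact word is found in 0.56% of all genes. These matches are descriptions of letters in a window, not of binding sites.

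The last 150 bases before the start are shown for genes whose stretch holds no exon base of the GENCODE M21 annotation. Hmgcs1 (chr13:119690201-119690350, plus strand) is shown for its sterol element, and Mvk (chr5:114444119-114444268, plus strand) and Fasn (chr11:120824548-120824697, minus strand) for their repeated CCAAT matches. In Fasn a match on each strand overlaps, as CCAATTGG. Lbr (chr1:181842402-181842551, minus strand, inside the gene's annotated span) and Sc5d (chr9:42264301-42264450, minus strand) stand for genes with unlike behaviour across the libraries. Npc1l1 (chr11:6230246-6230395, minus strand) is a transport gene, and Acly (chr11:100528001-100528150, minus strand) a target with no CCAAT in the window. All are written 5′ to 3′ on the gene's strand, and capitals mark CCAAT, its reverse complement ATTGG, and the sterol element.
Hmgcs1: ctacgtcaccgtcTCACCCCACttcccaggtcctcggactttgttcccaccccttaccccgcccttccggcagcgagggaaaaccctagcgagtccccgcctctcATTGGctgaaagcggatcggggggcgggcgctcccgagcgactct
Mvk: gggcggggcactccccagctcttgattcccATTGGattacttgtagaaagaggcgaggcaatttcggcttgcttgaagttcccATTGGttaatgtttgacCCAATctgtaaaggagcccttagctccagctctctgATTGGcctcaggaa
Fasn: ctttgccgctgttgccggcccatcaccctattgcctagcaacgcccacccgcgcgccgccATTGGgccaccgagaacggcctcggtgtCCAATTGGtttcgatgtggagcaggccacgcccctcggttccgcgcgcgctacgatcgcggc
Lbr: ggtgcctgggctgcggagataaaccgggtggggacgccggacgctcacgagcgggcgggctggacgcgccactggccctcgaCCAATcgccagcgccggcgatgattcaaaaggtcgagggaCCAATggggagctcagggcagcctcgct
Sc5d: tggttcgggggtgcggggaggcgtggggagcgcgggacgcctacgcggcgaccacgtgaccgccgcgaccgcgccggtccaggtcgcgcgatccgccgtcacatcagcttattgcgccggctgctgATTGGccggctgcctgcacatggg
Npc1l1: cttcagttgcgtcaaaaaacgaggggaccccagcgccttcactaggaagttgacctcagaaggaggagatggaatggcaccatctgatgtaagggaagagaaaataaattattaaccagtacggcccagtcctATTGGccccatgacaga
Acly: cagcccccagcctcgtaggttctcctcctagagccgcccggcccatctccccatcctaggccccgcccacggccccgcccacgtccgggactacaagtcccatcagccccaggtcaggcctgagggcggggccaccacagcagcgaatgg

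Of the 6 enzymes of the early mevalonate pathway, Hmgcs1 (ENSMUSG00000093930, chromosome 13, 119690379 to 119708260, plus strand, GRCm38), the cytosolic HMG-CoA synthase, was the most abundant. Its levels were 73.6 and 46.2 CPM in SPF 3 and SPF 4, 154 and 77.5 CPM in GF 1 and GF 3, and 55 and 95.8 CPM in AF 2 and AF 3. Both GF libraries lay above both SPF libraries, though GF 3 by little, and the AF libraries reached into both of the other groups. Mvd, which makes isopentenyl diphosphate, measured 10.9 and 3.64 CPM in SPF, 24.8 and 10 in GF, and 7.3 and 14.6 in AF, in the same library order. SPF 4 was the low library and GF 1 the high one, and the groups overlapped. Idi1, the isomerase that follows, measured 29 and 10.2 CPM in SPF, 47.7 and 25.8 in GF, and 19.6 and 35.4 in AF, with the same low and high libraries. Acat2, the cytosolic thiolase at the pathway's entry, ranged from 9.16 CPM in GF 3 to 23.8 CPM in GF 1, so that a single group spanned all 6 values. Mvk, mevalonate kinase, measured 11.6 and 9.12 CPM in SPF, 22.1 and 10.7 in GF, and 15.4 and 15 in AF. Its AF libraries lay above both SPF libraries. Pmvk, the next kinase, was nearly level at 16 to 20.6 CPM.

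At the isoprenoid branch point, Fdps makes farnesyl diphosphate, and Ggps1 extends it to the geranylgeranyl diphosphate used for prenylation. Fdps measured 45.6 and 25.3 CPM in SPF, 66.7 and 39.2 in GF, and 43.7 and 58.6 in AF, and the groups overlapped. Ggps1 measured 12.2 and 11.5 CPM in SPF, 8.9 and 8.75 in GF, and 7.93 and 7.78 in AF. Its libraries agreed closely within each group and were ordered SPF, GF, AF with no overlap. The gap between GF and AF was small, at 8.75 against 7.93 CPM. Per length, the ratio of Fdps to Ggps1 ranged from 3.39 in SPF 4 to 13.7 in GF 1. Fdft1 (ENSMUSG00000021273, chromosome 14, 63145150 to 63179578, minus strand), squalene synthase and the first committed step to sterols, measured 27.7 and 13.2 CPM in SPF, 57.3 and 30.9 in GF, and 24.8 and 33.4 in AF. Both GF libraries lay above both SPF libraries. Of its exon bases 18.3% are shared with the antisense gene Ctsb, and reads of the overlap cannot be told apart without a stated strand setting. Sqle, squalene epoxidase, measured 34 and 6.79 CPM in SPF, 50.1 and 28.2 in GF, and 18.1 and 28.6 in AF. SPF 4 stood far below the other 5 libraries, and SPF 3 above all but GF 1.

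The last 10 enzymes make lanosterol and turn it into cholesterol, and they varied unequally between libraries. Lss, which closes the sterol rings, measured 18.6 and 5.28 CPM in SPF, 33.4 and 14.6 in GF, and 13.7 and 22.9 in AF. Cyp51, the lanosterol demethylase, measured 36.5 and 19.2 CPM in SPF, 66.3 and 35.6 in GF, and 26.6 and 49.1 in AF. For both, the lowest library was SPF 4 and the highest GF 1. Msmo1, a sterol methyl oxidase, measured 33.8 and 26.2 CPM in SPF, 60.6 and 36.3 in GF, and 30.7 and 43 in AF, with both GF libraries above both SPF libraries. Dhcr7, which makes the last reduction, measured 24.7 and 22.2 CPM in SPF, 40.7 and 22.1 in GF, and 28.5 and 34.7 in AF, where both AF libraries exceeded both SPF libraries. Ebp, the sterol isomerase, had a narrow range of 36.8 to 47.4 CPM, and Nsdhl, a dehydrogenase of the demethylation step, ranged from 13.2 to 22.3 CPM. Sc5d, the desaturase, measured 49.1 and 64.7 CPM in SPF, 54.8 and 46.7 in GF, and 42 and 42.2 in AF. Both AF libraries were below all 4 others, and SPF 4, low for most of the pathway, was the highest. Hsd17b7, a ketone reductase, measured 7.54 and 9.09 CPM in AF, against 9.57 to 16.4 CPM in the 4 others, the AF libraries being the lowest.

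Tm7sf2 and Lbr encode alternative sterol C14 reductases of the same step, and Lbr is also a lamin-binding protein of the inner nuclear membrane. Tm7sf2 (ENSMUSG00000024799, chromosome 19, 6062821 to 6068373, minus strand) measured 14.6 and 16.5 CPM in SPF, 23.6 and 24.5 in GF, and 23.2 and 22.5 in AF. The pairs agreed within each group, and GF and AF lay above SPF without overlap. Lbr measured 23.4 and 4.53 CPM in SPF, 29.5 and 13.4 in GF, and 13.3 and 23.1 in AF, so that its spread within groups exceeded that between them. The ratio of Tm7sf2 to Lbr in TPM was 1.94 and 10.6 in SPF, 2.32 and 5.51 in GF, and 4.78 and 2.71 in AF. Tm7sf2 was thus the more abundant reductase per length in each library, by the least in SPF 3 and the most in SPF 4. Tm7sf2 shares 12.1% of its exon bases with Vps51 on the same strand, so that RSEM has to divide some reads between them.

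Srebf2 and Srebf1, the SREBP genes themselves, differed in their high and low libraries. Srebf2 (ENSMUSG00000022463, chromosome 15, 82147181 to 82205379, plus strand) measured 72.8 and 38.3 CPM in SPF, 95.3 and 63.2 in GF, and 61.6 and 75.3 in AF. SPF 4 was its lowest library and GF 1 its highest, as for most enzymes. Srebf1 (ENSMUSG00000020538, chromosome 11, 60199089 to 60222581, minus strand) measured 91.7 and 158 CPM in SPF, 77.6 and 110 in GF, and 170 and 151 in AF. GF 1 was its lowest library and AF 2 its highest, and both AF libraries lay above both GF libraries. In TPM the ratio of Srebf1 to Srebf2 was 2 and 6.33 in SPF, 1.35 and 2.67 in GF, and 4.02 and 3.27 in AF, and gene totals do not separate the SREBP-1a and SREBP-1c transcripts. Scap measured 39.7 and 40.7 CPM in SPF, 41.2 and 61 in GF, and 62.8 and 55.1 in AF, with the SPF libraries the lowest. The sterol-sensing retention genes Insig1 (39.1 to 63.4 CPM) and Insig2 (17.8 to 33.9 CPM) overlapped between all groups.

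Npc1l1 measured 761 and 1531 CPM in SPF, 609 and 1000 in GF, and 956 and 733 in AF. Its highest library, SPF 4, was the lowest for most enzymes, and within each group the library poorer in crypt markers held more of it. Proximal small intestine markers, led by Apoa4, also summed highest in SPF 4 (26539 CPM) and lowest in GF 1 (6424 CPM). Apoa4 alone held 17985 CPM of the sum in SPF 4, and the list shares Apoa4, Fabp1 and Lct with the brush border markers. Distal small intestine markers summed to 1265 CPM in SPF 4 and 1919 CPM in GF 1, within a range of 1112 to 1936 CPM. The part of intestinal region was not tested. Stard4, a carrier that moves cholesterol between membranes, measured 79 and 76 CPM in SPF, 122 and 77.3 in GF, and 90.8 and 94.9 in AF, the AF libraries being above both of SPF. Fasn, the fatty acid synthase, had the widest range of the 29 as a ratio of its highest to its lowest library (8.19-fold), with 62.6 and 9.95 CPM in SPF, 81.4 and 46.9 in GF, and 36.8 and 74.5 in AF. Acly, which supplies cytosolic acetyl-CoA, measured 46.7 and 20.5 CPM in SPF and 33.2 to 49.7 CPM in the other 4 libraries. SPF 4 was lowest for both.

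**Figure D1:**
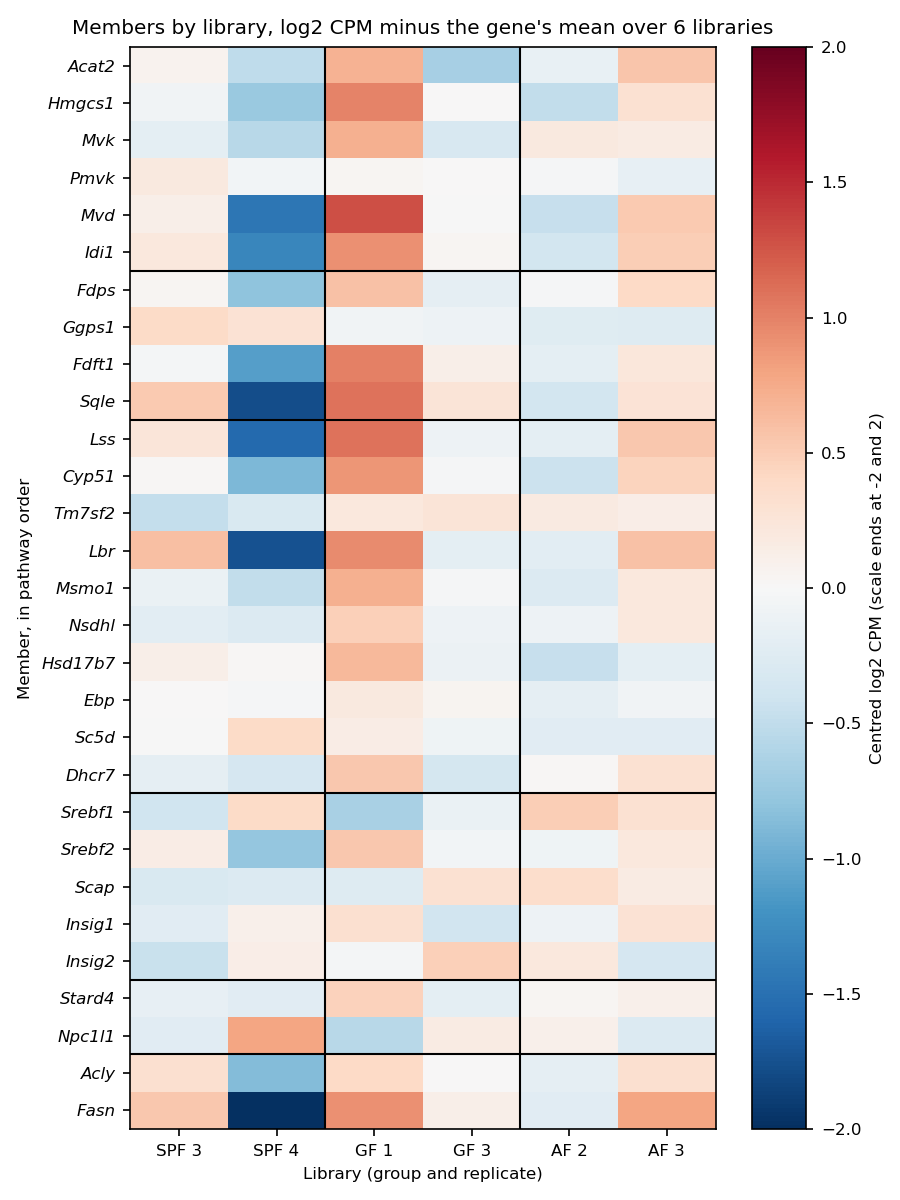
Level of each of the 29 genes (rows, in pathway order) in each of the 6 libraries (columns), as log2 CPM minus the gene's mean over the libraries; red is above and blue below that mean, and lines separate groups and gene roles. GF 1 is highest for 21 of 29 genes and SPF 4 lowest for 16 of 29.

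**Figure D2:**
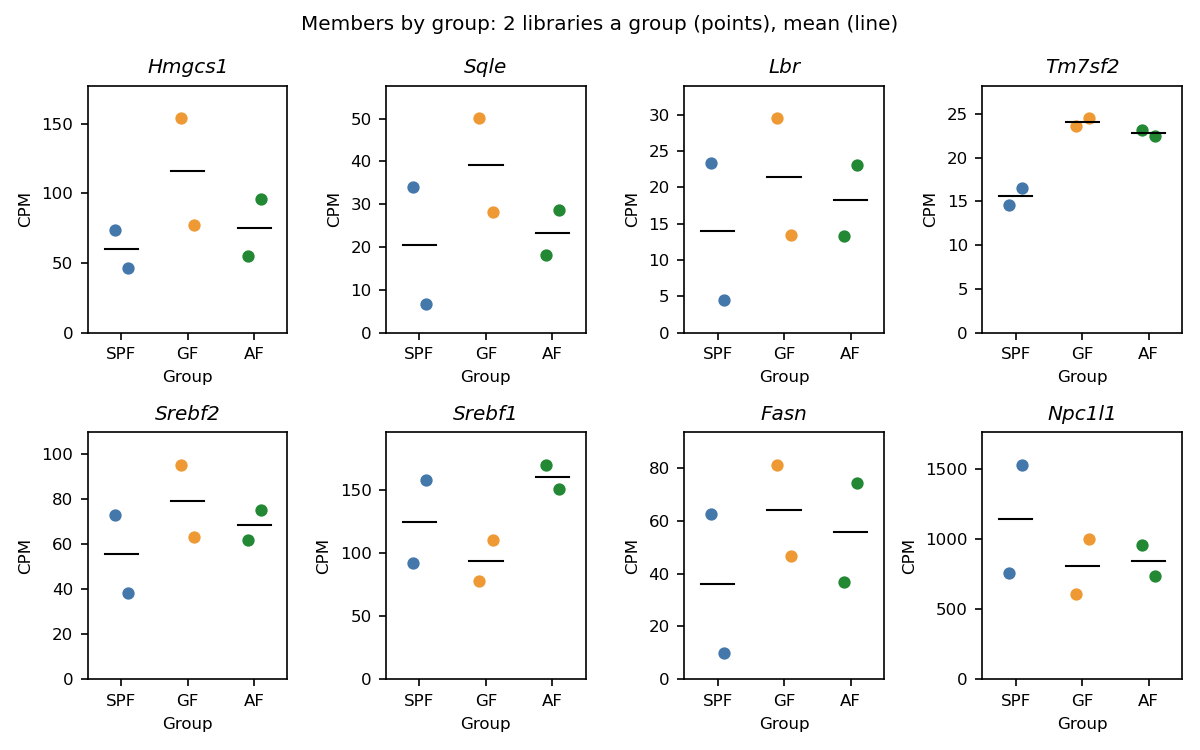
CPM of 8 of the genes by group, with a point for each library and a line at the mean of the 2. The points of Sqle, Lbr and Fasn are as far apart within SPF as the groups are, while those of Tm7sf2 lie close together, at 14.6 and 16.5 CPM in SPF and 22.5 to 24.5 CPM elsewhere.

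GF versus SPF asks how the epithelium of mice without a microbiota differs from that of mice with one. By value, 24 of the 29 genes were higher in GF and 5 lower, with a median log2 fold change of 0.46, against 0.022 over all 13644 genes tested, of which 51.8% were higher and 48.1% lower. For the 20 synthesis enzymes the median was 0.62, with 17 higher. Mvd had the largest estimate (1.25, SE 0.68; 17.4 ± 10.4 CPM in GF and 7.29 ± 5.17 in SPF, SD, n = 2), followed by Fdft1 (1.11, SE 0.45; 44.1 ± 18.7 and 20.5 ± 10.2 CPM) and Lss (1, SE 0.67; 24 ± 13.3 and 11.9 ± 9.41 CPM). Npc1l1 (-0.51, SE 0.48), Ggps1 (-0.42, SE 0.23) and Srebf1 (-0.41, SE 0.34) had the lowest estimates.

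No member passed edgeR's quasi-likelihood test at an adjusted p below 0.05, where 0.0147% of all genes did, 2 genes, both higher in GF. DESeq2 called 0 members, against 80 of all 13644 genes. At an unadjusted p below 0.05 there were 2 members, both higher, against 3.2% of all genes higher and 3.51% lower: Tm7sf2 (log2 fold change 0.63, SE 0.19, edgeR adjusted p = 0.738) and Fdft1 (edgeR adjusted p = 0.738). For 7 of 29 both GF libraries lay above both SPF libraries, as for 16.8% of all genes: Hmgcs1, Fdft1, Tm7sf2, Msmo1, Nsdhl, Ebp and Scap. For 1, Ggps1, both lay below, as for 17.1%. The members' median was 0.24 without SPF 4, 0.14 without GF 1, 0.69 without SPF 3 and 0.77 without GF 3 and, once the crypt score entered the fit as a covariate, 0.28. With no filter on low counts 2 members passed, Mvd (adjusted p = 0.0373) and Fdft1 (adjusted p = 0.0114), but calls rose over all genes as well, to 484 of 22763 genes or 2.13%.

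AF versus GF compares mice without food antigens with mice that had them, both without a microbiota. No label gives the make-up of the diets, so food antigens cannot be told apart from other differences of diet. By value, 6 genes were higher and 23 lower in AF, with a median of -0.2 against -0.023 over all genes, of which 47.1% were higher and 52.9% lower. Sqle (-0.75, SE 0.72), Mvd (-0.67, SE 0.67) and Hsd17b7 (-0.64, SE 0.33; 8.32 ± 1.1 CPM in AF and 13 ± 4.81 in GF, SD, n = 2) had the lowest estimates. Srebf1 had the highest (0.77, SE 0.34; 160 ± 13.8 against 94 ± 23.1 CPM, edgeR adjusted p = 1), and was the 1 member with both AF libraries above both GF libraries, as 15.8% of all genes were. For 6 members both AF libraries were below, as for 17.8% of genes: Pmvk, Ggps1, Tm7sf2, Hsd17b7, Ebp and Sc5d.

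In AF versus GF 0 members passed edgeR's test and DESeq2 called 0. Of all 13644 genes, edgeR called 0.0147% (0.00733% in each direction) and DESeq2 called 51 genes. At an unadjusted p below 0.05 there were also 0 members, against 1.52% of all genes higher and 2.07% lower. The sign of the members' median rested on GF 1, without which it was 0.1, with 17 genes higher and 12 lower. Without AF 2 the median was -0.074 and without GF 3 -0.41. On log2(TPM + 1) it was -0.53, where the median of all genes moved as well, to -0.36.

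AF versus SPF compares mice without microbiota or food antigens with mice that had both. The unknown make-up of the diets cannot be told apart from the group here either. By value, 23 genes were higher and 6 lower in AF, with a median of 0.33 against 0.011 over all genes, of which 50.9% were higher and 49.1% lower. Lss (0.61, SE 0.67), Fasn (0.61, SE 0.82) and Mvd (0.58, SE 0.68) had the highest estimates, each smaller than its standard error. Tm7sf2 was better resolved (0.56, SE 0.19; 22.8 ± 0.501 CPM in AF and 15.5 ± 1.34 in SPF, SD, n = 2; edgeR adjusted p = 0.39), as were Scap (0.55, SE 0.24; 58.9 ± 5.38 and 40.2 ± 0.716 CPM, adjusted p = 0.458) and Ggps1 (-0.59, SE 0.24; 7.86 ± 0.105 and 11.8 ± 0.515 CPM, edgeR adjusted p = 0.43).

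Here too 0 members passed edgeR's test, where 0.044% of all genes did (0.0293% higher and 0.0147% lower). DESeq2 called 0 members, against 272 of all 13644 genes. Tm7sf2 was higher and Ggps1 lower at an unadjusted p below 0.05, against 4.76% of all genes higher and 6.52% lower. For 6 members both AF libraries lay above both SPF libraries, as for 22% of all genes: Mvk, Tm7sf2, Nsdhl, Dhcr7, Scap and Stard4. For 4 members, Ggps1, Hsd17b7, Ebp and Sc5d, they lay below, as for 22.6%. The members' median was 0.048 without SPF 4 and -0.012 without AF 3, and the crypt covariate gave 0.17. On log2(TPM + 1) it was -0.042, with 13 genes higher and 16 lower, while the median of all genes was -0.31, which leaves the members 0.27 above it. The 3 comparisons share libraries pairwise, so their values for a gene are not independent of each other.

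**Figure D3:**
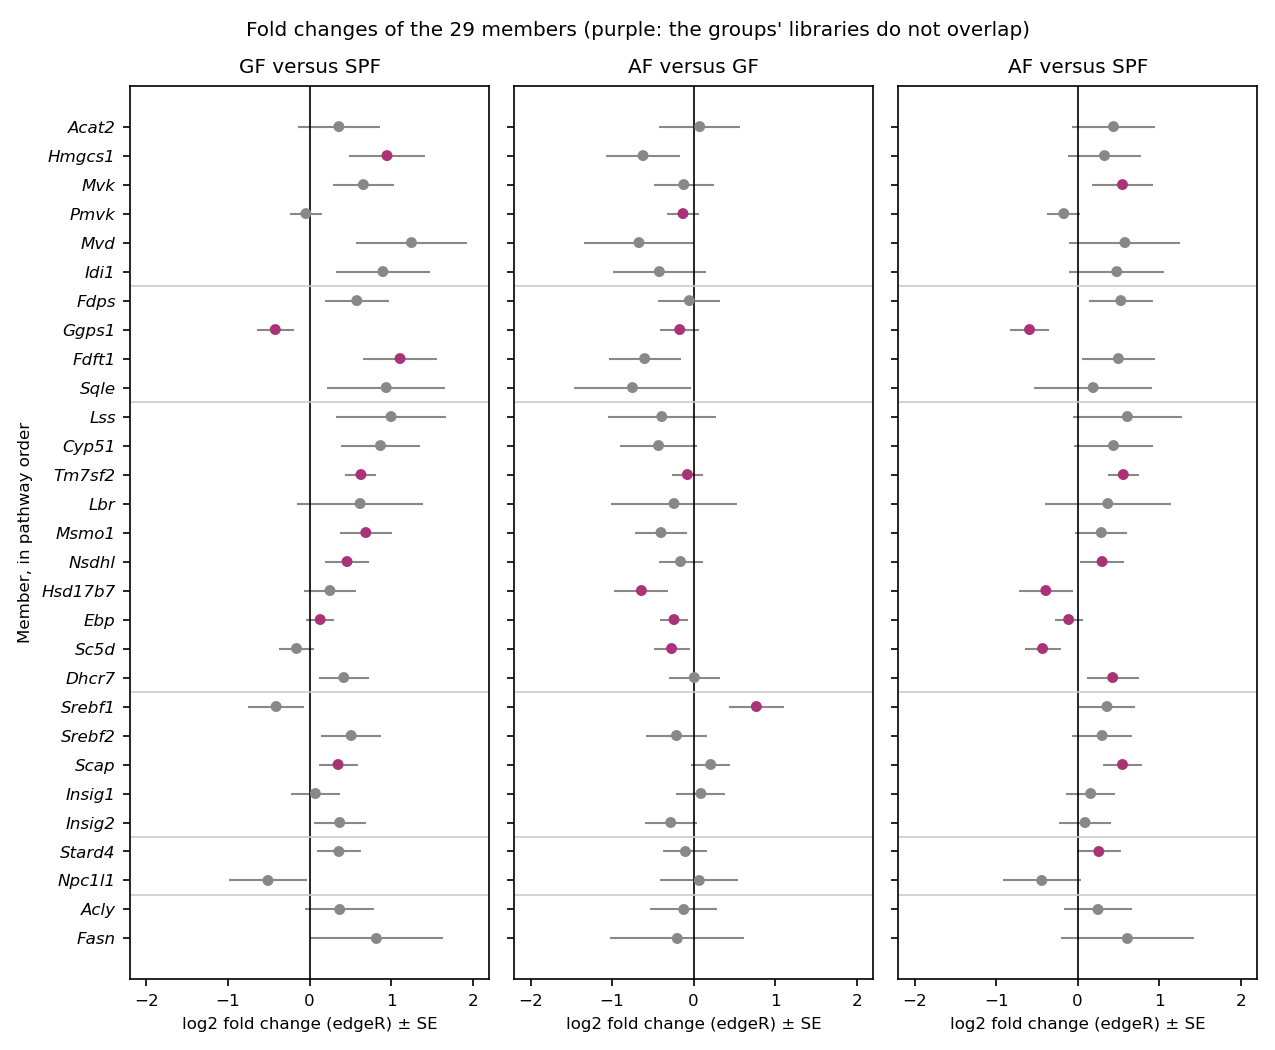
log2 fold changes (points) with standard errors (bars) from edgeR for each of the 29 genes in the 3 comparisons, in pathway order; purple marks genes whose groups do not overlap in CPM. Most points lie right of 0 in GF versus SPF (24 of 29) and left of 0 in AF versus GF (23 of 29), and the bars of Sqle, Lbr and Fasn are among the widest.

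Within groups, the genes differed between libraries in a shared direction. The members' median gap between the paired libraries was 0.58 on the log2 scale in SPF (all genes 0.56), 0.74 in GF (all genes 0.39) and 0.4 in AF (all genes 0.27). SPF 3, GF 1 and AF 3 are the libraries with more crypt marker RNA in their groups, and 19 of 29 members were higher in the crypt-rich library of every group, against 25.9% of all genes. Among the 20 synthesis enzymes this held for 15, with Tm7sf2 the 1 enzyme in the opposite direction in every group. Tm7sf2, Srebf1, Scap, Insig2 and Npc1l1, 5 of 29, were lower in the crypt-rich library of every group, against 24.5% of all genes. Mvk, Pmvk, Ggps1, Sc5d and Insig1 were mixed. In bulk RNA a difference in the number of crypt cells and a difference in RNA per cell cannot be told apart. The 8 crypt stem cell markers summed to 413 (SPF 3), 109 (SPF 4), 534 (GF 1), 241 (GF 3), 220 (AF 2) and 274 CPM (AF 3), and its part in the between-group values was not tested beyond the covariate values given above.

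**Figure D4:**
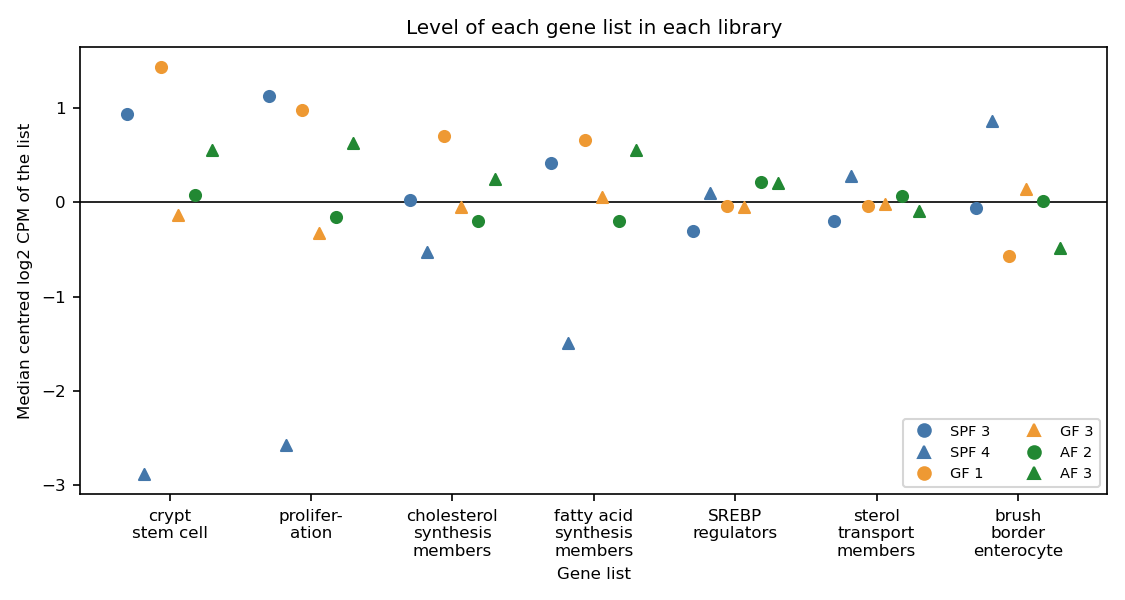
Median centred log2 CPM of gene lists (horizontal axis) in each library (points, colour by group, shape by library). The cholesterol synthesis genes lie highest in GF 1 (0.7) and lowest in SPF 4 (-0.53), as do the crypt stem cell markers (1.43 and -2.88), while brush border markers lie highest in SPF 4 (0.86).

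Genes around the pathway were read from 6 lists holding 56 genes, of which 55 were tested, and 0 passed edgeR's test in any comparison. Among 14 sterol export, storage and LXR target genes, 4 were higher and 10 lower by value in GF than in SPF (median -0.27). In AF versus GF 9 were higher and 5 lower (median 0.18), and in AF versus SPF 8 and 6 (median 0.27). Of all genes, 51.8%, 47.1% and 50.9% were higher in these comparisons. Of the 14, 8 were lower in the crypt-rich library of every group, against 24.5% of all genes. Higher there were 2, against 25.9%. The list's median centred log2 CPM was -0.23 in SPF 3 and 0.41 in SPF 4. It was -0.45 in GF 1, 0.0022 in GF 3, 0.32 in AF 2 and 0.11 in AF 3. Scarb1 (ENSMUSG00000037936, chromosome 5, 125277087 to 125341094, minus strand), the HDL receptor SR-BI, measured 9.57 and 30.9 CPM in SPF, 6.6 and 16.2 in GF, and 730 and 558 in AF. Both AF libraries stood far above all 4 others, by 56.7-fold over GF (log2 fold change 5.83, SE 0.79, edgeR adjusted p = 0.563) and 31.9-fold over SPF (4.99, SE 0.76, adjusted p = 0.259). DESeq2 called both differences (adjusted p = 2.3e-16 and 6.62e-12), as did limma on log2(TPM + 1) (adjusted p = 0.00833 and 0.0193) and edgeR given the crypt covariate (adjusted p = 0.0015 and 0.00197). With only the 2 groups in the fit edgeR called neither (adjusted p = 0.053 and 0.333). The size of the difference depended on single libraries: the log2 fold change of AF versus SPF was 4.38 without SPF 3 and 6.07 without SPF 4, and that of AF versus GF 5.31 without GF 1 and 6.61 without GF 3. Abca1, which exports cholesterol to apolipoproteins, measured 10 and 8.02 CPM in SPF, 6.63 and 5.22 in GF, and 18.7 and 12.5 in AF, with AF against GF at a log2 fold change of 1.39 (SE 0.32, edgeR adjusted p = 1). With no low-count filter edgeR called that difference (1.37, adjusted p = 0.0405), as it did 264 of 22763 genes, and DESeq2 did not (adjusted p = 0.114).

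Of 14 other fatty acid synthesis genes, 13 were tested. By value, 10 of the 13 were higher in GF than in SPF, against 51.8% of all genes. In AF, 9 were higher than in GF and 11 than in SPF, against 47.1% and 50.9% of all genes. The list's median centred log2 CPM was 0.15 in SPF 3 and -1.46 in SPF 4. It was 0.28 and -0.2 in GF 1 and GF 3, and 0.31 and 0.52 in AF 2 and AF 3. SPF 3 thus lay above GF 3, and SPF 4 far below all others. Scd1 (ENSMUSG00000037071, chromosome 19, 44394455 to 44407879, minus strand), the stearoyl-CoA desaturase, measured 0.504 and 0.343 CPM in SPF, 2.33 and 0.475 in GF, and 41.5 and 39.7 in AF. It was low outside AF, with 5 to 64 counts a library against 529 and 668 counts in AF. The log2 fold change was 4.77 in AF versus GF (SE 0.66, edgeR adjusted p = 0.563) and 6.53 in AF versus SPF (SE 0.75, adjusted p = 0.163), and DESeq2 called both (adjusted p = 2.52e-10 and 2.35e-16), while limma on log2(TPM + 1) called neither (adjusted p = 0.209 and 0.109). edgeR called both with the crypt covariate (adjusted p = 0.0271 and 0.0155). With only the 2 groups it called AF versus SPF (adjusted p = 0.0398) but not AF versus GF (adjusted p = 0.104). The AF versus GF value rose to 6.4 without GF 1, the GF library with more Scd1, and fell to 4.12 without GF 3. Elovl6, which elongates palmitate, measured 98.4 and 126 CPM in SPF and 54.2 to 74.3 CPM in the other 4 libraries (AF versus SPF -0.79, SE 0.28, adjusted p = 0.397). Scd1 and Fasn, both targets of fatty acid synthesis control, thus differed in pattern, Fasn in AF lying within the range of the other groups.

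**Figure D5:**
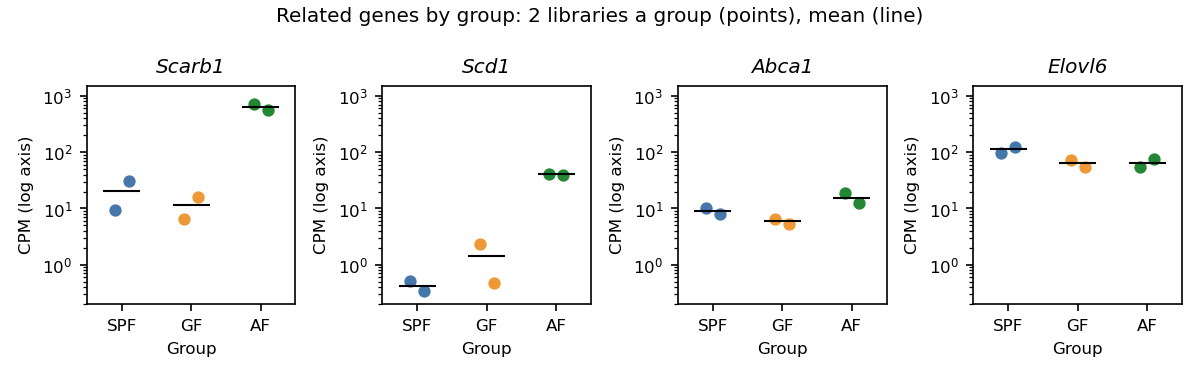
CPM on a log axis of 4 related genes by group, with a point for each library and a line at the mean of the 2. The AF points of Scarb1 (730 and 558 CPM) and Scd1 (41.5 and 39.7 CPM) lie above all other points, those of Abca1 lie above with a smaller gap, and those of Elovl6 lie below both SPF points.

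Acat1, the mitochondrial thiolase of ketone body metabolism, was at 77.8 to 92.4 CPM in SPF and GF and at 104 and 114 CPM in AF. Both AF libraries were the highest, with a log2 fold change of 0.37 in AF versus GF (SE 0.21, edgeR adjusted p = 1), which turned sign on the TPM scale (-0.25 on log2(TPM + 1), where the median of all genes was -0.36).

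Of 7 genes that process or degrade SREBP pathway proteins, 6 were lower by value in AF than in SPF, against 49.1% of all genes. Both AF libraries lay below both SPF libraries for 4 of the 7, as for 22.6% of all genes, and above for 1, as for 22%. Rnf139, a ubiquitin ligase of the endoplasmic reticulum, measured 14.8 and 22 CPM in SPF, 10.8 and 12.3 in GF, and 7.93 and 8.44 in AF (AF versus SPF -1.17, SE 0.28, edgeR adjusted p = 0.361). With no low-count filter edgeR called that difference (adjusted p = 0.0309), as it did 804 of 22763 genes, and DESeq2 did not (adjusted p = 0.0747). The groups of Rnf139 were ordered SPF, GF, AF with no overlap, as for Ggps1. The share of all genes with such an order was not counted. Erlin2, which works with INSIG proteins in sterol-regulated degradation, was at 60.1 and 60.7 CPM in AF against 67.2 to 83.9 CPM elsewhere. Of 6 other sterol-responsive genes, 5 were higher by value in GF than in SPF, against 51.8% of all genes. Within groups, 5 of the 6 were higher in the crypt-rich library of every group, against 25.9% of all genes. Aacs, which makes acetoacetyl-CoA in the cytosol, measured 26.9 and 6.24 CPM in SPF, 48.6 and 26.5 in GF, and 23.2 and 31.7 in AF, with the same low SPF 4 and high GF 1 as the enzymes. With no low-count filter edgeR called Aacs in GF versus SPF (adjusted p = 0.00579), as it did 484 of 22763 genes, and DESeq2 did not (adjusted p = 0.742). Cyb5r3, a reductase that passes electrons to sterol and fatty acid enzymes, was instead highest in SPF 4 (544 CPM, against 267 to 430 CPM).

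For 11 genes that use isoprenoids, the median log2 fold change was 0.024 in GF versus SPF, -0.15 in AF versus GF and -0.046 in AF versus SPF. Icmt, which methylates prenylated proteins, was at 38.6 and 41 CPM in SPF, 31.1 CPM in both GF libraries, and 30.4 and 24.7 CPM in AF (AF versus SPF -0.53, SE 0.19, edgeR adjusted p = 0.398). Nus1, a subunit of the enzyme for dolichol, measured 43.8 and 43.6 CPM in SPF against 27.3 to 35.6 CPM in the others. In both genes the SPF libraries were the highest.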

How the data were processed

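Sorted small intestinal epithelial cells of SPF, GF and AF mice (2 libraries each) were profiled by RNA-seq. Per the submitters' processing notes, STAR 2.5.2b, RSEM, edgeR 3.16.5 and GRCm38/mm10 were used. No RSEM version, annotation release or strand setting is given in the sources used here. Per the file headers, the authors deposited RSEM expected counts per gene, not scaled between libraries, and TPM values scaled by effective length. IDs were matched to GENCODE M21. Counts were rounded (23.54% of values above 0 were not whole). RSEM's posterior SD was at most 2.39% of a member's count.

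The main test was edgeR 4.0.16's quasi-likelihood F test in R 4.3.3, with TMM factors (0.791 to 1.41) and filterByExpr, all 6 libraries in 1 fit (3 residual degrees of freedom, prior 3.08, common biological coefficient of variation 0.368), and Benjamini-Hochberg adjustment over 13644 genes, called below 0.05. CPM uses TMM-scaled totals. Alternatives were DESeq2 1.42.0, median-of-ratios scaling, no low-count filter, limma 3.58.1 on log2(TPM + 1) and log2(TPM + 0.1), only the groups compared, a crypt score covariate and each library left out. The 29 genes and all lists were chosen with earlier results of these data known. All 29 genes are named; of each related list, those called or otherwise the 2 with the smallest p, less an item that is not reported here. For the related genes, the same alternatives were added after seeing the data.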

Additional observations from a re-analysis of the deposited data

How the results depend on the processing

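No member was called in any comparison by DESeq2, limma, another scaling, the fits of only 2 groups, the crypt covariate or with any library left out; the exceptions, with no low-count filter, were 2 members higher in GF versus SPF (Mvd and Fdft1). No paired analysis was possible because the groups share at most 1 replicate number. Genes called over all genes numbered 2 in GF versus SPF, 2 in AF versus GF, and 6 in AF versus SPF. In the same order they were 80, 51 and 272 by DESeq2, 484, 264 and 804 with no low-count filter, 5, 9 and 8 by limma on log2(TPM + 1), 4, 5 and 7 on log2(TPM + 0.1), 0, 8 and 2 with only the groups compared, 3, 17 and 115 with the crypt covariate, and 0 to 369, 0 to 9 and 0 to 625 with a library left out. The highest of these, 369, 9 and 625, were all without SPF 3. Leaving a library out rests on a group of 1 that is assumed to vary like the others.

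With 1 library left out at a time, the members' medians ranged from 0.14 to 0.77 in GF versus SPF. They ranged from -0.41 to 0.1 in AF versus GF, and from -0.012 to 0.53 in AF versus SPF. The AF versus SPF median was -0.042 and -0.033 on log2(TPM + 1) and log2(TPM + 0.1), and the AF versus GF median -0.59 on the latter, where all genes stood at -0.42. Signs changed in 92 of 1131 values of members. In 12 of these the reported value exceeded its own standard error, though the value with the other sign was often far below its own. On log2(TPM + 1) and log2(TPM + 0.1) these were, in AF versus SPF, Nsdhl (-0.091 and -0.1), Dhcr7 (-0.11 and -0.12) and Srebf1 (-0.0027 and -0.0031), and, among related genes, Acat1 in AF versus GF (-0.25 and -0.26) and AF versus SPF (-0.2 and -0.21). On these 2 scales the median of all genes was -0.31 and -0.36 in AF versus SPF, and -0.36 and -0.42 in AF versus GF. The part of that shift in the sign changes was not tested. With libraries left out, the log2 fold changes in GF versus SPF ranged from -0.75 to 0.028 for Srebf1, -0.93 to 0.073 for Npc1l1, -0.84 to 0.19 for Cyb5r3 and -1.62 to 0.23 for Scarb1, each positive only without SPF 4. They ranged from -0.093 to 0.79 for Dhcr7 and -0.0081 to 0.65 for Stard4, each negative only without GF 1. In AF versus GF they ranged from -1.28 to 0.13 for Mvd and -0.72 to 0.025 for Msmo1, each positive only without GF 1. The number of libraries, 2 a group, limits the precision of all values, and depth limits low genes such as Scd1, with 5 to 11 counts in 3 libraries.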
